A study of Mus musculus with 4 samples.

Results

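The genes described here are 7 products or regulators of the gastric chief cell and of its digestive secretion: Pga5, Pgc, Chia1, Cblif (also written Gif), Bhlha15, Pnliprp1 and Rnase1. They were chosen by name, and every probe of the array that matched one of these symbols was kept. This gave 10 probes for 7 genes, out of 41174 probes on the array. Chia1, Bhlha15 and Rnase1 have 2 probes each, and the other genes have 1. Of the 10 probes, 8 passed the filter for signal above background, so that 6 of the 7 genes were tested among 21045 genes in all. Cblif did not pass.

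Chief cells lie at the base of the glands of the stomach corpus and release pepsinogens, the inactive precursors of the acid protease pepsin. In the mouse they also release acidic chitinase and, unlike in humans, gastric intrinsic factor, which carries vitamin B12 to the ileum. The transcription factor Bhlha15 (Mist1) builds the large secretory apparatus of chief cells and pancreatic acinar cells, and loss of chief cell products is a known feature of metaplasia in the stomach.

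RNA came from glandular stomach tumours of K19-Wnt1/C2mE mice at 30 weeks of age. In this strain the Krt19 promoter drives Wnt1, Ptgs2 (cyclooxygenase-2) and Ptges (a prostaglandin E synthase) in the gastric epithelium. All 4 samples carry these transgenes and come from tumours. Tumours were digested for 3 h with collagenase and hyaluronidase, lineage-positive cells were removed, and the remaining cells were sorted by the hyaluronan receptor CD44 into Lin- CD44+ cells (2 arrays) and Lin- CD44- cells (2 arrays). The comparison asks which transcripts differ between these groups. The lineage markers are not given in the sources used here, and nothing in the labels shows that the 2 samples of a group are separate mice. The p-values therefore rest on the spread between samples alone, and that spread may be technical.

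Levels are log2 of the processed signal relative to the 75th percentile of the same array, so that 0 marks that percentile. The 75th percentile of processed signal ranged from 244 on the first CD44+ array to 527 on the second CD44- array, and spots well above background made up 53.1% to 69.6% of an array. The first CD44+ array was the dimmest, and its lowest level well above background was -3.41, against -5.22 to -4.92 on the other 3 arrays. Cd44 itself had a mean log2 difference of 1.74 ± 0.49 (SE, n = 2 per group), CD44+ minus CD44-, with an adjusted p of 0.199. All 8 markers of gastric epithelium were well above background on all 4 arrays.

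Pnliprp1, Pga5, Pgc, Chia1 and Cblif were each at their highest on the second CD44- array. The 250 bases upstream of the RefSeq start of 4 of them are shown so that the genes that share this array pattern can be set side by side. RefSeq promoter sequences (GRCm38.p6) were matched for 6 of the 7 genes, and the exception was Pga5. All 4 lie on the plus strand: Pgc at chr17:47726592-47726841, Chia1 at chr3:106113132-106113381, Cblif at chr19:11747309-11747558 and Pnliprp1 at chr19:58728637-58728886. Capitals mark matches to TATAAA, the core of a TATA box, and to CANNTG, the E-box bound by basic helix-loop-helix factors such as Bhlha15.
Pgc: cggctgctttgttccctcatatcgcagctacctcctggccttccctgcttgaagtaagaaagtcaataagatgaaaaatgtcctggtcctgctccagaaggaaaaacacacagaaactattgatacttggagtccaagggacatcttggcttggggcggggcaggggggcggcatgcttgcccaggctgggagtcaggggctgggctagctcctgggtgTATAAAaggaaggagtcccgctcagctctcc
Chia1: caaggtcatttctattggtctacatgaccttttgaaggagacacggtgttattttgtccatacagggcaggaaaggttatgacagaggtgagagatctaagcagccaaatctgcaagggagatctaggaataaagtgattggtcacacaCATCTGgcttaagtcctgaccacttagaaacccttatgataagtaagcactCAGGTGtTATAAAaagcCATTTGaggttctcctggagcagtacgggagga
Cblif: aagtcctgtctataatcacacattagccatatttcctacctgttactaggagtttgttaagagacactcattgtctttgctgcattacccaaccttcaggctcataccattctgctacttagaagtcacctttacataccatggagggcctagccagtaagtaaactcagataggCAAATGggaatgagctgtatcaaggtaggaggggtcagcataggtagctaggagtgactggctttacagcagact
Pnliprp1: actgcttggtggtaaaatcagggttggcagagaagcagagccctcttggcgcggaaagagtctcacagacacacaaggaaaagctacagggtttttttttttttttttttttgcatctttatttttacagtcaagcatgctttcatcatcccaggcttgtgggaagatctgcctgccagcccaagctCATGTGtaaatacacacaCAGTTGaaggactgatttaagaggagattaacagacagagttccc
Both strands were searched, and CANNTG reads the same on either strand. TATAAA stood 31 bases upstream of the start in Pgc and 43 bases upstream in Chia1, and was not matched in this window of Cblif or Pnliprp1. Of 32851 promoters of the same length, 12.4% held TATAAA. The E-box letters CANNTG were matched 3 times in Chia1 (101, 50 and 33 bases upstream), once in Cblif (75 bases upstream), 2 times in Pnliprp1 (63 and 45 bases upstream) and not in Pgc, and no match overlapped another. The share of all promoters that held CANNTG was 66.2%. The E-box forms CATATG, held by 3.46% of all promoters, and CAGCTG, held by 13.0%, are part of CANNTG and were not matched in any of the 6 promoters. In the other members, Bhlha15 held 3 matches to CANNTG and Rnase1 held none. A match describes the letters only and does not show that a factor binds there.

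In the comparison of CD44+ with CD44- cells, 1 member passed: Pnliprp1, a relative of pancreatic lipase, was lower in CD44+ cells. The pepsinogen gene Pga5 had the next smallest p among the members and did not pass. For Pgc and Chia1 the difference between the 2 CD44- arrays was larger than the difference between the groups. Bhlha15 and Rnase1 had the smallest differences between the groups, 0.31 and 0.45 on the log2 scale. Over all genes tested, 84 passed at an adjusted p under 0.05 (limma, Benjamini-Hochberg), which is 0.399%, and 2263 had an unadjusted p under 0.05. Of the 84, 79 were lower in CD44+ cells (0.375%) and 5 were higher (0.0238%). Pnliprp1 entered the test only through the CD44- group, the group in which it is high, so the count of 1 member of 6 has no weight as a share.

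**Figure D1:**
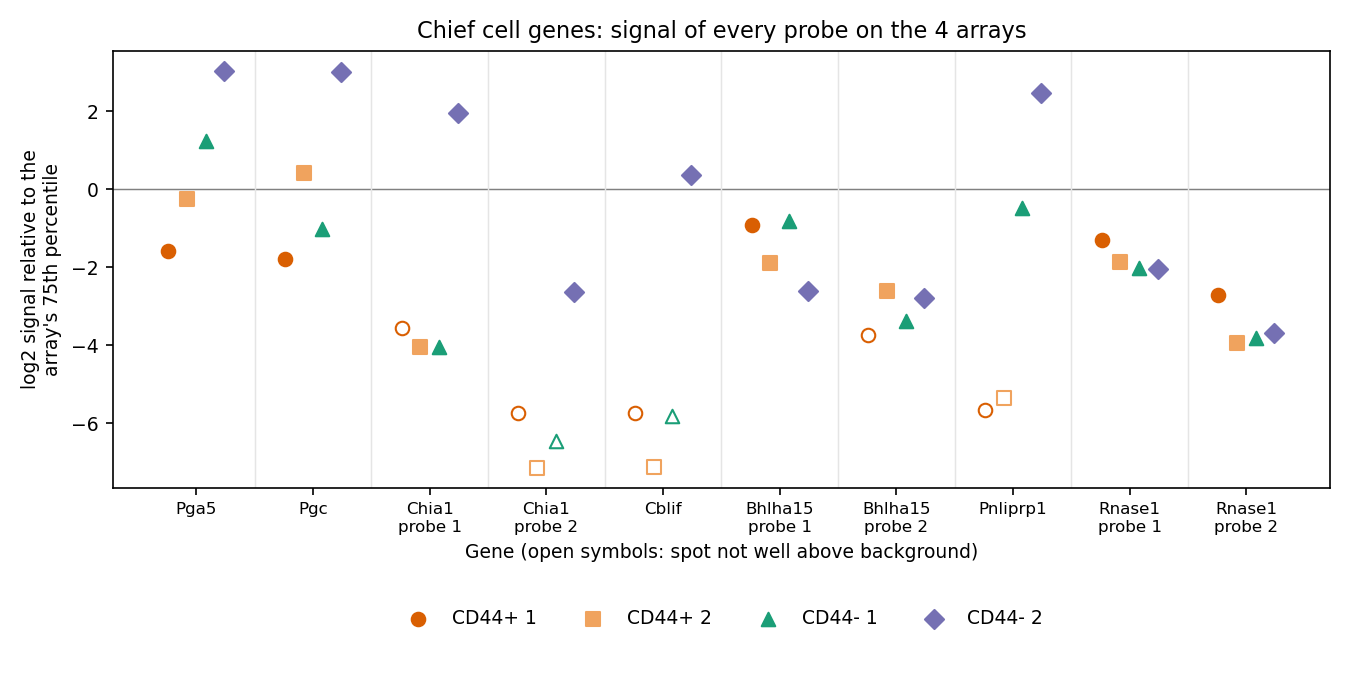
Log2 signal of every probe of the 7 genes relative to the 75th percentile of its array (vertical axis), by gene (horizontal axis), with 1 symbol per array and open symbols where a probe was not well above background. The second CD44- array stands highest for Pga5, Pgc, Chia1, Cblif and Pnliprp1, while the Bhlha15 and Rnase1 probes show no such step.

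Pga5 and Pgc encode pepsinogens, the main proteolytic zymogens of the stomach. Pga5 had log2 levels of -1.60 and -0.25 in CD44+ cells and 1.22 and 3.04 in CD44- cells, each pair in the order of the replicates, as throughout. Both CD44- arrays were therefore above both CD44+ arrays, and all 4 were well above background. The mean log2 difference was -3.05 ± 0.71 (SE, 95% interval -4.69 to -1.41), which is 8.29-fold, with an adjusted p of 0.143 in the limma fit, so that Pga5 did not pass and ranked at place 393 of all genes by p. Within a group Pga5 also differed: the second replicate was 3.51-fold above the first in CD44- cells and 2.55-fold in CD44+ cells. Without the first CD44- array its log2 difference was -3.96, and without the second it was -2.14, each with 1 CD44- array left.

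Pgc, which encodes progastricsin, had processed signals of 70.1 and 654 in CD44+ cells and 198 and 4228 in CD44- cells. Its log2 levels were -1.80 and 0.41 in CD44+ cells and -1.03 and 3.01 in CD44- cells. The groups overlap, because the second CD44+ array lies above the first CD44- array. The log2 difference was -1.68 ± 1.23 (SE, 95% interval -4.51 to 1.15) with an adjusted p of 0.768 in the limma fit. In both groups the second array was the higher one, by 4.62-fold in CD44+ cells and 16.4-fold in CD44- cells. Without the second CD44- array the direction turned, to a log2 difference of 0.34, and without the first it was -3.70. Each of these values rests on 1 CD44- array. The pepsinogens thus differed from each other in their order over the arrays: Pga5 parted the groups and Pgc did not, a contrast that was not tested.

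Chia1 encodes acidic mammalian chitinase, an enzyme that digests chitin in the acid of the stomach. Its brighter probe had log2 levels of -3.57 and -4.05 in CD44+ cells and -4.05 and 1.95 in CD44- cells, the first of these not well above background. A single array, the second of the CD44- group, therefore stood at least 41.2-fold above each of the others. The difference between the 2 CD44- arrays, 64.0-fold, was exceeded by only 1 of the 21045 genes, Ccl21c, a chemokine gene named after its value was seen, at 116-fold. The log2 difference between the groups was -2.76 ± 1.57 (SE, 95% interval -6.37 to 0.85) with an adjusted p of 0.662 in the limma fit. It was 0.24 without the second CD44- array and -5.76 without the first, each with 1 CD44- array left. The dimmer Chia1 probe was well above background on the second CD44- array alone, where its log2 level was -2.65. This was at least 4.83-fold above the other CD44- array, but only at least 1.70-fold above each of the others.

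Cblif encodes gastric intrinsic factor, the vitamin B12 carrier that defines chief cells in the mouse. Its processed signals were 4.61 and 3.55 in CD44+ cells and 7.20 on the first CD44- array, none of them well above background, and 674 on the second CD44- array. Cblif was thus measured on 1 of 4 arrays, at a log2 level of 0.36. It was not tested, and no lower limit is given for the group means, because the first CD44- array is at background. The second CD44- array alone stood at least 13.6-fold above each of the others, against their lowest signal well above background. Between the arrays of the CD44- group, the step was at least 38.7-fold, again against the lowest signal well above background.

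Pnliprp1 encodes a secreted protein of the pancreatic lipase family that is made in large amounts by acinar cells of the pancreas. Its processed signals were 4.81 and 12.0 in CD44+ cells, both not well above background, and 292 and 2897 in CD44- cells, both well above it. The log2 levels were -5.66 and -5.36 in CD44+ cells and -0.48 and 2.46 in CD44- cells, so that the groups were far apart. Pnliprp1 was at least 38.3-fold lower in CD44+ cells, with a fitted log2 difference of -6.50 ± 0.86 (SE) and an adjusted p of 0.0269 in the limma fit, at place 49 by p. The fitted value rests on background signal in CD44+ cells, so that only the lower limit is a measured fold. Between the 2 CD44- arrays Pnliprp1 differed by 7.65-fold, which 301 of the tested genes exceeded. Its call was lost with quantile normalization (adjusted p = 0.169 in the limma fit) and with no filter on dim probes (adjusted p = 0.0754). It was also lost without the first or the second CD44+ array (log2 difference -6.35 and -6.66). Without the first CD44- array the log2 difference was -7.97, and without the second it was -5.03, each with 1 CD44- array left. In these sorted populations, fewer cells of a type and less RNA per cell cannot be told apart.

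Rnase1 encodes the secreted pancreatic-type ribonuclease. The brighter of its 2 probes had log2 levels of -1.31 and -1.87 in CD44+ cells and -2.03 and -2.04 in CD44- cells. The groups do not overlap, but they lie close together and the CD44- arrays are almost equal. The log2 difference was 0.45 ± 0.46 (SE, 95% interval -0.60 to 1.5) with an adjusted p of 0.808 in the limma fit. The dimmer probe had a log2 difference of 0.43 with overlapping groups. Between the CD44- arrays, second over first, Rnase1 stood at 0.988-fold by the brighter probe and 1.08-fold by the dimmer one, the smallest steps among the members' probes.

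Bhlha15 is the transcription factor that sets the secretory architecture of chief cells. The brighter probe had log2 levels of -0.92 and -1.90 in CD44+ cells and -0.82 and -2.60 in CD44- cells, and was well above background on all 4 arrays. The second CD44- array, which was highest for the zymogen genes, was the lowest for this probe. The log2 difference was 0.31 ± 0.67 (SE, 95% interval -1.24 to 1.85) with an adjusted p of 0.900 in the limma fit, and it turned to -0.18 without the first CD44+ array and to -0.59 without the second CD44- array. The dimmer Bhlha15 probe had log2 levels of -3.75 and -2.61 in CD44+ cells and -3.38 and -2.80 in CD44- cells, a difference of -0.09, so the probes of this gene differ in sign and in the order of the arrays.

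**Figure D2:**
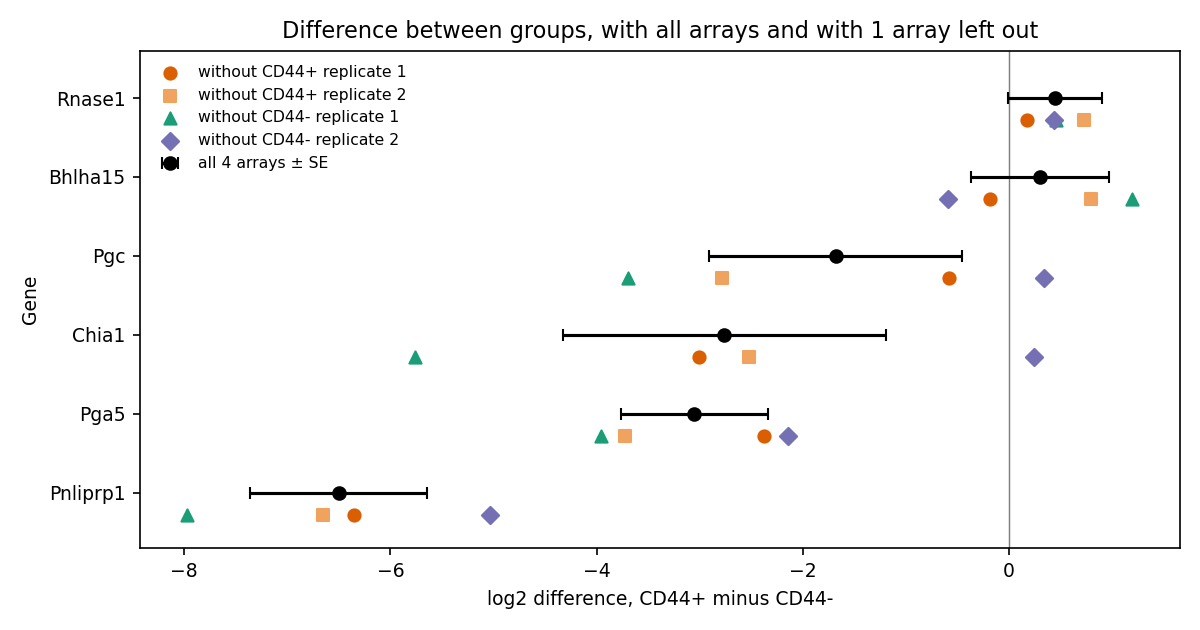
Log2 difference, CD44+ minus CD44- (horizontal axis), of the 6 tested genes (vertical axis), as a black point ± SE for all 4 arrays and as coloured symbols with 1 array left out. Pnliprp1 stays between -7.97 and -5.03, while Pgc moves from -3.70 to 0.34 and Chia1 from -5.76 to 0.24.

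By the median over the 6 tested members, the log2 difference was -2.22, beside 0.16 for all genes tested, and 4 of 6 were below 0, as were 39.4% of all genes. Chia1 and Pnliprp1 entered the test only through the CD44- group, where they are high. The median and the counts of members given here are therefore a description and have no weight against the values for all genes. The groups did not overlap for 3 of the 6: Pga5 and Pnliprp1 were lower on both CD44+ arrays and Rnase1 was higher. Over all genes, the groups did not overlap for 39.6%, with 17.2% lower and 22.4% higher in CD44+ cells, so such a pattern is common in this design of 2 against 2 arrays. An exact two-sided permutation test of 2 against 2 arrays cannot give a p below 0.333.

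Pga5, Pgc, Bhlha15 and Rnase1 were well above background on all 4 arrays, and Chia1, Cblif and Pnliprp1 on more arrays of the CD44- group than of the CD44+ group. Of the 7 genes, by the brightest probe of each, 4 were well above background on the first CD44+ array, 5 on the second, 6 on the first CD44- array and 7 on the second. Over all spots the share well above background rose in the same order of arrays, 53.1%, 65.6%, 66.6% and 69.6%. The step between the CD44- arrays was at least 2-fold for 4 of the 6 tested members (Pga5, Pgc, Chia1 and Pnliprp1), against 10.9% of all genes. Of these, Pgc, Chia1 and Pnliprp1 stood at least 4-fold above each of the other 3 arrays, against 2.81% of all genes. Because Chia1 and Pnliprp1 passed the filter through the CD44- group alone, both counts of members have no weight as shares. Between the CD44+ arrays the second was at least 2-fold above the first for Pga5 and Pgc, 2 of 6, against 8.43% of all genes.

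Markers of other cell types shared this step, and their part in the members' values was not tested. Of the 9 endothelial markers tested all 9 were at least 2-fold higher on the second of the CD44- arrays than on the other, as were 9 of 10 fibroblast markers and 6 of 7 smooth muscle and pericyte markers. Among these, Cdh5, Dpt, Col6a1, Pdgfra, Cnn1, Pdgfrb and Rgs5 entered the test only through the CD44- group, where they are high. The counts given here for these lists are therefore a description and have no weight as shares. Signal summed over a list, in units of the 75th percentile of the array, was 2.18 and 3.12 in CD44+ cells and 9.66 and 155 in CD44- cells for 11 endothelial genes. For 10 fibroblast genes it was 12.4 and 46.8 against 78.4 and 458, and for 8 smooth muscle and pericyte genes 8.42 and 11.5 against 12.8 and 61.7. The endothelial markers Pecam1 and Tie1 were well above background on the second CD44- array alone, and the muscle marker Des on no array. For the 7 chief cell genes the same sum was 1.67 and 2.81 against 4.43 and 27.3. Between the groups 0 of these markers passed in the limma fit, while 8 of 9 endothelial, 8 of 10 fibroblast and 2 of 7 muscle markers had an unadjusted p under 0.05, all lower in CD44+ cells. With median scaling 7 endothelial, 6 fibroblast and 0 muscle markers passed.

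The remaining lists gave other counts. Among 8 gastric epithelium markers, 8 surface mucous cell genes and 9 leukocyte markers, 0 were at least 2-fold higher on the second CD44- array, and 1 of 10 squamous markers was. Parietal cell genes, from the acid-secreting neighbours of chief cells, did so for 4 of 8, tuft cell markers for 4 of 8, enteroendocrine markers for 5 of 12 and mucous neck and metaplasia genes for 2 of 8. For the members the count was also 4 of 6 with median scaling, quantile normalization and normexp, while quantile normalization moved the squamous count to 4 of 10 and the mucous neck count to 5 of 8. These shares were not tested against each other. Kcne2, Scg5, Ghrl and Neurod1 counted toward them and entered the test only through the CD44- group.

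**Figure D3:**
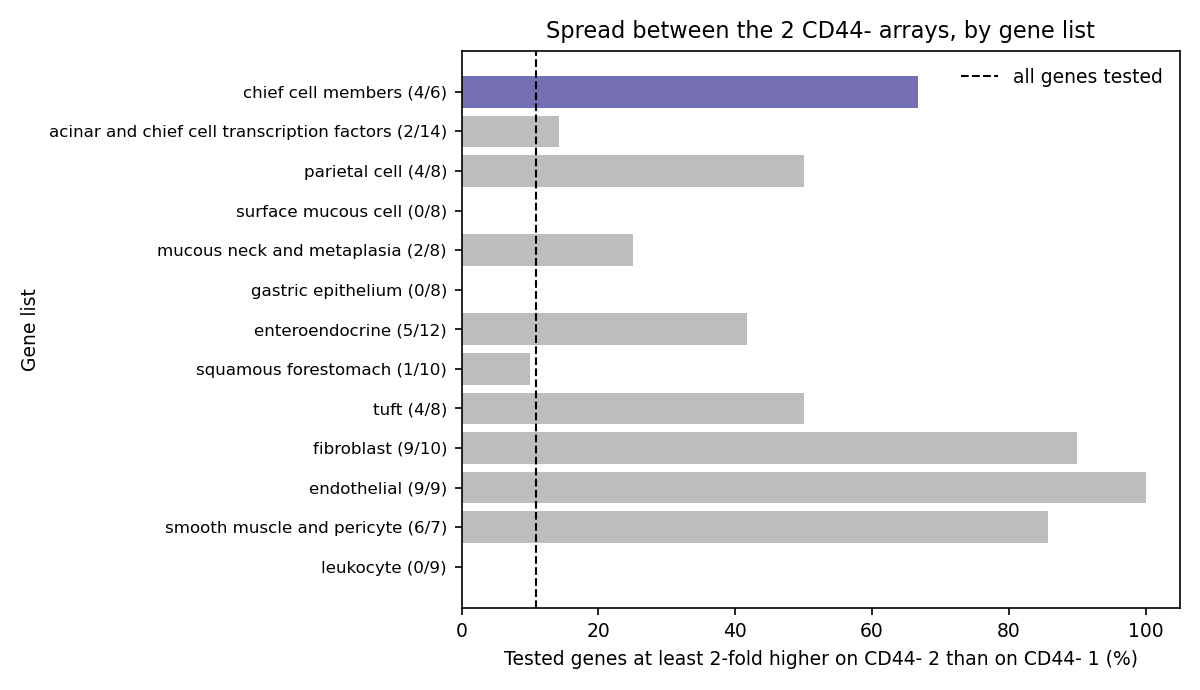
Share of tested genes at least 2-fold higher on the second of the CD44- arrays than on the other, in percent (horizontal axis), for the chief cell genes and 12 other gene lists (vertical axis), with a dashed line at 10.9%, the share of all genes tested. The chief cell genes are at 66.7%, between the parietal cell and tuft lists at 50% and the smooth muscle and pericyte list at 85.7%. Chia1 and Pnliprp1 among the chief cell genes entered the test only through the CD44- group, as did some genes of the other lists.

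The relatives of each member by family were compared next. Among 8 aspartic proteases 0 passed, and 2 had an unadjusted p under 0.05. The 6 that are not members were all above 0, except 1 of them with quantile normalization, among them Napsa (napsin A) at a log2 difference of 1.30 ± 0.50, Ctse (cathepsin E, an intracellular protease of surface epithelium) at 1.07 ± 0.59 and Bace1 at 0.72 ± 0.44. That direction was shared by 12745 of the 21045 genes tested. Ctse had log2 levels of 8.18 and 7.90 in CD44+ cells and 7.74 and 6.20 in CD44- cells, lowest on the array where the pepsinogen genes were highest. In the chitinase family 0 of 8 passed, and 1 had an unadjusted p under 0.05. The enzymatically inactive chitinase-like genes Chil4 and Chil3 had log2 differences of 2.34 ± 1.22 and 2.08 ± 1.09. Chil4 stood at 4.28 and 0.80 in CD44+ cells and 1.66 and -1.28 in CD44- cells, so that the second CD44- array, the highest for Chia1, was the lowest for Chil4. Ctbs, a lysosomal chitobiase, had a log2 difference of 1.33 ± 0.46 (adjusted p = 0.308 in the limma fit).

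In the ribonuclease A family, 0 of 7 tested genes passed in the limma fit, 0 had an unadjusted p under 0.05, and all 7 had log2 differences above 0 under every scaling, from 0.39 for Rnase2a to 1.02 for Ang2. Of all 21045 genes tested 12745 were above 0, from 12270 with quantile normalization to 14377 with normexp, so this direction was common. The angiogenin genes Ang2 and Ang4 stood lowest on the second CD44- array, at log2 levels of -3.58 and -2.01, each at least 2-fold below the first CD44- array, while the 2 CD44- arrays of Rnase1 were nearly equal. Rnase6, Rnase9 and Ear1 were not well above background on any array.

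Pnliprp1 was the single gene that passed among 9 tested genes of the triglyceride lipase list, of which 7 were below 0 (6 with normexp) and 4 had an unadjusted p under 0.05. Clps, the colipase that anchors pancreatic lipase to fat droplets, had log2 levels of 1.60 and 2.44 in CD44+ cells and 4.44 and 4.30 in CD44- cells. The groups of Clps did not overlap and its CD44- arrays were nearly equal, unlike those of Pnliprp1. Its log2 difference was -2.35 ± 0.48, with an adjusted p of 0.111 in the limma fit. Lpl, the lipoprotein lipase of vessel walls and fat, had a log2 difference of -2.96 ± 0.83 and Pla1a, a phosphatidylserine lipase, -2.71 ± 1.17. Lpl and Pla1a were not well above background on the first CD44+ array. Pancreatic lipase itself, Pnlip, was not well above background on any array, and neither were Lipc and Lipg. Lipf, the gastric lipase, had log2 levels of -1.39 and -2.52 in CD44+ cells and -2.72 and -3.33 in CD44- cells, lowest on the second CD44- array.

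Among 15 tested pancreatic-type digestive enzymes and granule proteins 0 passed and 5 had an unadjusted p under 0.05, with 8 below 0 (6 with median scaling or quantile normalization, 4 with normexp). Gp2, a membrane protein of zymogen granules, was at 3.27 ± 0.78 (adjusted p = 0.154 in the limma fit), Amy1 (amylase) at -1.60 ± 0.53 and Cela1 (an elastase) at 1.36 ± 0.52. Gp2 stood at log2 levels of 0.97 and 1.86 in CD44+ cells and -3.08 and -0.62 in CD44- cells, the opposite order of the groups to Pnliprp1. Cela2a, Cuzd1 and Tmprss15 were not well above background on any array. Of the 4 pancreatic islet markers 2 were tested, 0 passed and 0 had an unadjusted p under 0.05. The untested Gcg was well above background on the second CD44- array alone (processed signal 118). The untested Ins1 was flagged so on the first CD44- array alone. Its processed signals were 17.3 and 14.2 in CD44+ cells and 14.6 and 12.6 in CD44- cells. The first CD44+ array was thus the highest for Ins1.

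For the cobalamin pathway that takes up the vitamin carried by intrinsic factor, 0 of 10 tested genes passed in the limma fit, and 0 had an unadjusted p under 0.05. Mmachc, a cytosolic cobalamin chaperone, had a log2 difference of 0.95 ± 0.44, Tcn2, the plasma carrier, 0.82 ± 0.49, Cd320, the receptor of the Tcn2 complex, 0.73 ± 0.44 and Mtr, the methionine synthase, -0.67 ± 0.72. Mtr was not well above background on the first CD44+ array, where its log2 level was -5.67, against -4.08 to -3.39 on the others. The receptor gene Lrp2 was not well above background on any array. Cubn was well above it on the second array of each group, and Amn on all 4 arrays. None of the 10 tested was at least 2-fold higher on the second CD44- array, unlike Cblif.

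Among 14 acinar and chief cell transcription factors 0 passed, and 3 had an unadjusted p under 0.05, all lower in CD44+ cells. These 3 are factors of pancreatic acinar cells, and 2 genes of the list passed with median scaling, as with normexp. Of the 14 factors 4 were below 0 and 10 above 0. The median log2 difference of the list was 0.22, beside 0.16 for all genes tested. Ptf1a stood at log2 levels of -5.73 and -5.39 in CD44+ cells, both not well above background, and -2.86 and 0.59 in CD44- cells. It was at least 8.79-fold higher in CD44- cells by its measured means, with a fitted log2 difference of -4.43 ± 0.97 and an adjusted p of 0.124 in the limma fit, so that it did not pass. Rbpjl, its acinar partner, had a log2 difference of -2.09 ± 0.55 and Nr5a2, a nuclear receptor of acinar cells, -2.51 ± 0.73, with adjusted p of 0.178 and 0.220. Both had groups that did not overlap, and Nr5a2 was not well above background on the first CD44+ array. Bhlha15 did not follow these 3 factors, and Xbp1, the factor upstream of it in zymogenic cells, was at 0.32 ± 0.45. Tcf12, an E-protein that can pair with such factors, was at 0.59 ± 0.45.

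Secretory genes linked to Bhlha15 gave 0 calls of 11 tested and 4 with an unadjusted p under 0.05, with 6 below 0 (5 with median scaling or normexp). Itpr2, a calcium release channel of acinar cells, was at -2.34 ± 0.53 (adjusted p = 0.132 in the limma fit), Tmed6, a trafficking protein, at -1.91 ± 0.63 and Copz2, a coatomer subunit, at -2.16 ± 0.89. Tmed6 and Copz2 were not well above background on the first CD44+ array. Agr2, a disulfide isomerase of mucous cells, was at 1.28 ± 0.46. Rab3d, a granule GTPase known as a Bhlha15 target, stood at log2 levels of 3.11 and 2.82 in CD44+ cells and 3.53 and 1.78 in CD44- cells. It was lowest on the same array as the brighter Bhlha15 probe, while the dimmer probe was lowest on the first CD44+ array (Rab3d was named after its values were seen).

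**Figure D4:**
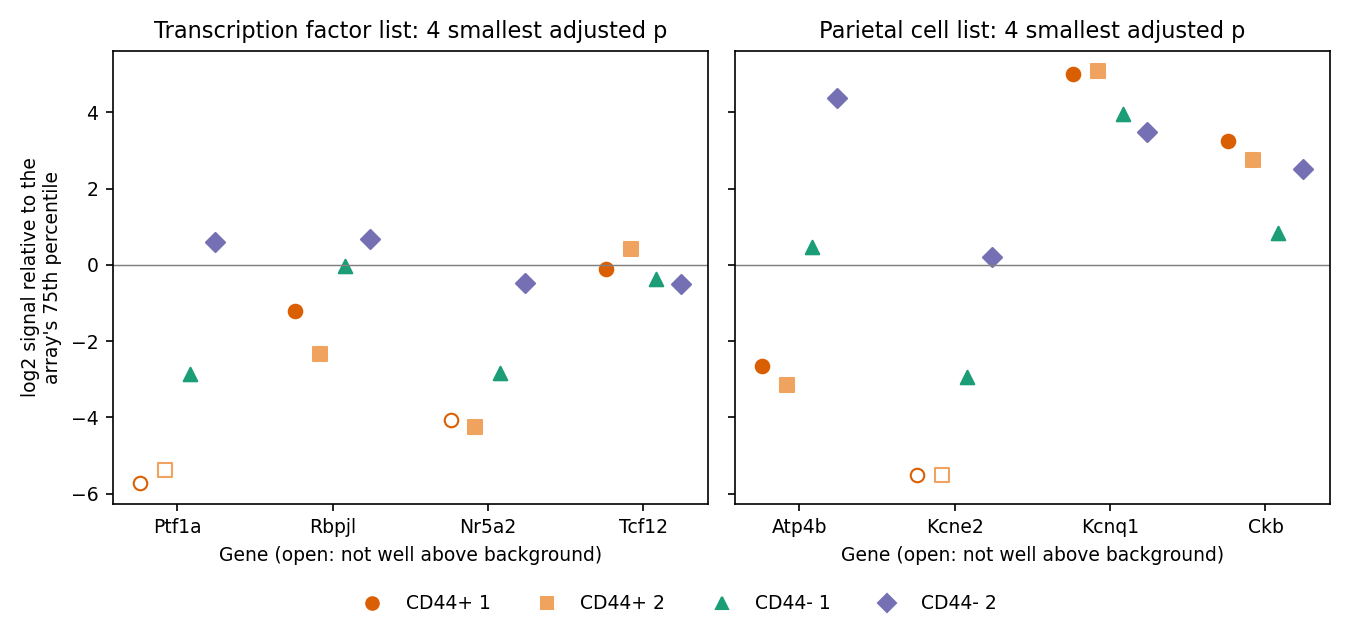
Log2 signal relative to the 75th percentile of the array (vertical axis) of the 4 genes with the smallest adjusted p in the transcription factor list and of the 4 in the parietal cell list (horizontal axis), with 1 symbol per array and open symbols where a probe was not well above background. Ptf1a stands at -5.73 and -5.39 in CD44+ cells and at 0.59 on the second CD44- array, and Atp4b at -2.65 and -3.15 in CD44+ cells and at 4.37 on that array.

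For the other lineages of the gastric gland 0 genes passed, but with median scaling 2 parietal, 3 mucous neck and 2 surface mucous genes did, and with normexp 2, 4 and 2. Of 8 tested parietal cell genes 4 were below 0 (3 with normexp) and 3 had an unadjusted p under 0.05. Atp4b, the beta subunit of the gastric proton pump, had log2 levels of -2.65 and -3.15 in CD44+ cells and 0.48 and 4.37 in CD44- cells, with a difference of -5.32 ± 1.07 (adjusted p = 0.106 in the limma fit). Kcne2, a potassium channel subunit of parietal cells, was at least 7.46-fold higher in CD44- cells by its measured means (adjusted p = 0.124), while Kcnq1, its channel partner, was at 1.32 ± 0.45 and the creatine kinase gene Ckb at 1.32 ± 0.62. Slc26a7 was not well above background on any array. Atp4a, the alpha subunit of the pump, was also highest on the second CD44- array, at a log2 level of 0.23. The parietal list summed to 190 and 198 in CD44+ cells and 305 and 103 in CD44- cells, most of it from the carbonic anhydrase gene Car2, and without Car2 to 42.7 and 41.3 against 19.4 and 40.3. All 8 tested mucous neck and metaplasia genes were above 0 (7 with quantile normalization), 0 passed and 4 had an unadjusted p under 0.05, with Gkn3 at 2.35 ± 0.48, Cftr at 2.46 ± 0.60 and Aqp5 at 3.08 ± 0.91. Over all genes 12745 of 21045 were above 0. Among 8 surface mucous cell genes 0 passed and 3 had an unadjusted p under 0.05, with Psca at -4.55 ± 0.82 (adjusted p = 0.0828) and Muc5ac at -4.65 ± 0.93, both highest on the first CD44- array. Among 5 chief cell progenitor markers 0 passed and 2 had an unadjusted p under 0.05, with Axin2 at 1.28 ± 0.46, Tnfrsf19 at -1.42 ± 0.59, Rnf43 at 0.52 ± 0.44 and Runx1 at 0.15 ± 0.44. Tnfrsf19 was not well above background on the first CD44+ array.

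Of the marker lists of other cell types, 4 held calls. Of 12 enteroendocrine markers 8 were lower in CD44+ cells, led by Chgb at -8.06 ± 0.48 (adjusted p = 0.00174 in the limma fit), as were 2 of 8 tuft markers (Siglecf and Il25) and 1 of 10 squamous markers (Krtdap). Of 9 leukocyte markers Cd53 was higher, and Itgam and Adgre1 were not well above background on any array. Ppy, Siglecf, Il25, Krtdap and Cd53 were each at background in the group where they are low, and entered the test only through the other group. The called markers Ghrl and Scg5 were not well above background on the first CD44+ array, and also entered only through the CD44- group. The counts of calls depended on the scaling: enteroendocrine 9 with median scaling and 1 with quantile normalization, squamous 7 and 1, tuft 4 and 0, leukocyte 1 and 0. With normexp they were 8, 7, 2 and 1. Of 8 gastric epithelium markers 0 passed and 1 had an unadjusted p under 0.05, Epcam at 1.66 ± 0.46 (adjusted p = 0.199). Of 2 erythroid markers 0 passed and 0 had an unadjusted p under 0.05. Between the CD44- arrays, second minus first, the log2 level of Chgb differed by 0.82 and that of Krtdap by -0.39, steps smaller than that of Pnliprp1 at 2.94.

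The genes most like each tested member were taken as those with the smallest Euclidean distance over the 4 arrays after centring each gene on its own mean. Nearest to Pga5 were Sobp at 0.09, Kctd12 at 0.26 and Slc35d3 at 0.27, and 142 genes lay within a distance of 1. Nearest to Pgc were Gmpr at 0.37, Art3 at 0.50 and Higd1b at 0.54, with 23 genes within 1. Chia1 and Pnliprp1 had 0 genes within that distance. The nearest to Chia1 were Jam2 at 1.13, Rnd1 at 1.25 and Arhgef15 at 1.27, and the nearest to Pnliprp1 were Egr4 at 1.105, Ly6c1 at 1.28 and Slc38a5 at 1.39. Bhlha15 had 1942 genes within 1, the nearest being Kmt5c at 0.036, Vpreb2 at 0.12 and Cadm3 at 0.15. Rnase1 had 8110 within 1, the nearest being Zfp775 at 0.0086, Upk1a at 0.023 and Cdh26 at 0.062. With 4 arrays, a small distance is common for genes that vary little, and these distances are a description.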

How the data were processed

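RNA of 4 sorted cell samples was amplified from 25 ng of total RNA, and 0.2 ug of amplified RNA was labelled with Cy3, per the labels' protocols, so each array is 1 sample in 1 colour. Such amplification can distort ratios between transcripts and lose rare ones. The authors deposited scanner tables and a value table. The processed signal is a background-subtracted intensity on a linear scale, per the file headers, as are the median spot and background intensities. The scanner tables name Agilent Feature Extraction 10.1.1.1, per the file headers, and the submitters' processing notes name version 9.5. Flags for outlier, saturation and well above background are 0 or 1 codes the authors' software set. The authors' value table holds a linear ratio, with low values held at 0.01. For 10728 probes above 200 on all arrays its log2 differences between arrays equalled those of the scanner intensities after 1 shift per array, with a median absolute deviation of at most 6.9e-08. Its column medians are 0.853 and 0.989 (CD44+) and 0.928 and 0.739 (CD44-), and how its scale factors were chosen is unknown.

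Control spots and outlier spots (109 to 133 per array) were left out, no gene spot was saturated, and spots of a probe were averaged. Log2 processed signal minus the 75th percentile over probes was analysed. Probe accessions were matched to RefSeq symbols (GRCm38.p6), which named 24375 of 41174 probes. Gene coordinates are not given, because the array design names a different build. A probe was tested where both arrays of either group were well above background, and the brightest probe stood for a gene. Groups were compared with limma 3.58.1 (R 4.3.3), with no covariates, 2 residual degrees of freedom and 6.01 from the variance model, and Benjamini-Hochberg adjustment over all genes, called under 0.05. The fit was tested on simulated data. A lower limit of a fold sets the brighter group's mean against, per array, the higher of the probe's own signal and the dimmest signal that was well above background.

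The members, the 12 related gene lists and the 10 cell type lists were chosen with earlier results of these data known. The genes named were all members, up to 4 of each related list and up to 3 of each cell type list with the smallest adjusted p, Cd44, Epcam and the 3 genes nearest each member; genes named beyond this illustrate a list's undetected or array-ordered members and were chosen after their values were seen. All 4 arrays lie on 1 slide and in 1 scan, so no batch could be compared. The number of arrays limits the precision. Alternatives covered scaling, background correction, filter, probe choice, the authors' table, variance trend, replicate block and leaving out each array.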

Additional observations from a re-analysis of the deposited data

How the results depend on the processing

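Pnliprp1 was below 0 under all 14 alternatives (log2 difference -7.97 to -3.51) and lost its call under 4: quantile normalization (-6.75), no filter (-6.50) and leaving out either CD44+ array. Leaving out 1 array in turn, where a lone array is assumed to vary like the other group, gave ranges of -7.97 to -5.03 for Pnliprp1, -3.96 to -2.14 for Pga5, -3.70 to 0.34 for Pgc, -5.76 to 0.24 for Chia1, -0.59 to 1.20 for Bhlha15, with values of -0.18 without the first CD44+ array, and 0.17 to 0.73 for Rnase1. Pgc and Chia1 changed sign without the second CD44- array, and Bhlha15 did so there, without the first CD44+ array and by its other probe (-0.094). Pga5 passed with median scaling (-2.95, adjusted p = 0.0112), normexp (-2.65) and the authors' table (-2.95), and Chia1 with normexp (-1.89). Members called numbered 1, against 2 with median scaling or the authors' table, 3 with normexp, 0 with quantile normalization or no filter, and 0 to 4 with 1 array left out. Over all genes 84 were called (5 higher, 79 lower), against 748 (121 and 627) with median scaling, 753 (121 and 632) with the authors' table, 540 (98 and 442) with normexp, 130 (13 and 117) with a variance trend, 24 with no filter, 6 with quantile normalization and 2 to 1590 with 1 array left out. Median scaling moved all differences by 0.11. The degrees of freedom from the variance model were 6.01 in the main fit, 18.9 with median scaling and 3.52 with quantile normalization. With normexp they were infinite, and each tested member had the same SE of 0.50, against 1.57 for Chia1 in the main fit. The normexp calls therefore do not use a gene's own spread. The cause of the changes in calls was not tested. Averaging probes and testing each probe changed no member's call, nor did the percentile over all gene spots, an alternative chosen after seeing the data (112 called). Cblif, untested, ranged from -6.78 to -0.60.

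The replicate numbers are shared between the groups, but the labels do not pair the samples; the deviations of same-numbered arrays correlated at 0.347. With the replicate block, 1829 genes and 4 members were called, at log2 differences of -3.05 for Pga5, -1.68 for Pgc, -2.76 for Chia1 and -6.50 for Pnliprp1. In that fit the degrees of freedom from the variance model were infinite, and each tested member had the same SE of 0.52. In the main fit the SE was 1.23 for Pgc and 1.57 for Chia1. The calls with the block therefore do not use a gene's own spread. Slide as a block was not run, since all arrays lie on 1 slide. Signal near background limits Cblif, the dimmer Chia1 probe and Pnliprp1 in CD44+ cells.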
